A study of Homo sapiens with 12 samples.

Results

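The 9 genes described here carry peptide antigens from the proteasome to the cell surface: the MHC class I heavy chains *HLA-B*, *HLA-C* and *HLA-E*, their light chain *B2M*, the peptide transporter subunits *TAP1* and *TAP2*, the loading factor *TAPBP* and the immunoproteasome subunits *PSMB8* and *PSMB9*. They were named as a set, with earlier results of these data known, and matched by gene name among the 30358 genes that both deposited count tables list, and all 9 were found and passed the filter on low counts in each table. Poly-A RNA was sequenced from cells given 100 nM PTDSS1i, a small-molecule inhibitor of phosphatidylserine synthase PTDSS1, or DMSO, its vehicle, for 48 h. The 4 groups are KYSE30 with DMSO, KYSE30 with PTDSS1i, U138MG with DMSO and U138MG with PTDSS1i, each of 3 libraries. Both are established cell lines labelled as wild type, KYSE30 as esophageal squamous cell carcinoma and U138MG as glioblastoma. The labels do not say whether replicates are separate cultures, so each p-value measures the spread between these libraries. All KYSE30 libraries are labelled as 1 batch and all U138MG libraries as another, so line, batch and table cannot be told apart.

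In this pathway the proteasome cuts cytosolic proteins, and in the immunoproteasome *PSMB8*, *PSMB9* and *PSMB10* take the places of the constitutive catalytic subunits *PSMB5*, *PSMB6* and *PSMB7*. *TAP1* and *TAP2* together pump the peptides into the endoplasmic reticulum, where tapasin, the product of *TAPBP*, holds empty class I molecules at the transporter until a peptide fits. A loaded heavy chain leaves for the cell surface with *B2M*, where T cells read the peptide, and *HLA-E* displays leader peptides of other class I chains to an inhibitory receptor of NK cells. Interferons and the transactivator *NLRC5* are known inducers of these genes.

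Library totals lay between 18800932 and 26514658 counts. The libraries labelled U138MG held more of the squamous epithelial transcripts than of the glial ones. In their DMSO libraries *KRT15* averaged 4861 CPM (counts scaled to the library total), *KRT5* averaged 1470 CPM and *TP63* averaged 276 CPM, whereas *VIM* averaged 0.206 CPM and *OLIG2* and *S100B* had 0 counts. The 6 squamous markers summed to 6870 to 7667 CPM in those DMSO libraries and to 1716 to 1836 CPM with PTDSS1i. In KYSE30 they summed to 896 to 967 CPM with DMSO and to 1138 to 1171 CPM with PTDSS1i. The 7 glial markers summed to 41.0 to 43.9 CPM with DMSO and to 7.43 to 8.77 CPM with PTDSS1i under the U138MG label, and to 101 to 108 CPM and 111 to 116 CPM in KYSE30. Most of each sum with DMSO was *SOX2*, which squamous cells can also express. The name U138MG is therefore used only as a label. Leukocytes express class I genes strongly, and their marker *PTPRC* stayed between 0 and 8 counts in every library. The 6 leukocyte markers summed to 0.494 to 1.06 CPM in KYSE30 with DMSO and to 1.16 to 1.35 CPM with PTDSS1i. With the U138MG label they summed to 29.1 to 35.7 CPM and to 103 to 111 CPM, most of it from *CD68*, a lysosomal protein that is not limited to leukocytes. The part of these markers in the results was not tested.

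The members lie in the MHC region of chromosome 6, except *B2M* on chromosome 15 (chr15:44711487-44718877, plus strand, GRCh38, GENCODE). *HLA-E* lies at chr6:30489467-30494205 on the plus strand, and *HLA-C* at chr6:31268749-31272130, *HLA-B* at chr6:31269491-31357188 and *TAPBP* at chr6:33299694-33314387 on the minus strand. *TAP2* at chr6:32821833-32838780, *PSMB8* at chr6:32840717-32844703 and *TAP1* at chr6:32845209-32853978 follow each other on the minus strand, and *PSMB9* at chr6:32844136-32859585 is on the plus strand. In RefSeq (GRCh38.p14) the *PSMB9* start lies 488 bases from the nearer of 2 *TAP1* starts, with the genes pointing away from each other. The other *TAP1* start lies 1431 bases from it, and its window is not printed. The promoter windows of this divergent pair and of *B2M* and *TAPBP*, from 250 bases before to 50 bases after the start, are printed because *TAP1*, *B2M* and *TAPBP* were called higher in both tables and *PSMB9* in neither. *HLA-E* was also called higher in both but has no RefSeq window here. The printed windows were picked by these results, so whether their matches go with the response was not tested. Capitals mark matches, on either strand, to the core of an interferon-stimulated response element (GAAANNGAAA) or to a kappaB-type site (GGGANNNNCC), and neighbouring matches can overlap.
*TAP1*, chr6:32853655-32853954, minus strand: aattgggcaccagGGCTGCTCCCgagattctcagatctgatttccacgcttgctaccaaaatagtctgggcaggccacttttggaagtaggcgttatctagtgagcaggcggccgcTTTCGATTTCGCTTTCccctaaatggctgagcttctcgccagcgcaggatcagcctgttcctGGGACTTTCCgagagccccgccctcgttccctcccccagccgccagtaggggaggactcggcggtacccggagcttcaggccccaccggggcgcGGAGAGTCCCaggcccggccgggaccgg
*PSMB9*, chr6:32853942-32854241, plus strand: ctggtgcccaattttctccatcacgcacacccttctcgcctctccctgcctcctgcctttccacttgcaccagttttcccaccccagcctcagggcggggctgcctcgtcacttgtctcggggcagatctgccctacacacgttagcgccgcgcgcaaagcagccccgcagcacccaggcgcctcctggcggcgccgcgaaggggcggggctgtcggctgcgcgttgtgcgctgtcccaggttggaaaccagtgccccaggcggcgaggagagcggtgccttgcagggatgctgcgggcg
*B2M*, chr15:44711267-44711566, plus strand: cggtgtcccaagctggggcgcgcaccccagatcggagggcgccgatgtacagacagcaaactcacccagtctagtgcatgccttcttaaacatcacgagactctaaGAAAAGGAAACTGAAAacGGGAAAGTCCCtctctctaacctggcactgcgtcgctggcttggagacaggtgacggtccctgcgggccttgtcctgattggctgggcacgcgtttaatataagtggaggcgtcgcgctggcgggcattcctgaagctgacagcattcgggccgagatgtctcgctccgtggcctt
*TAPBP*, chr6:33314029-33314328, minus strand: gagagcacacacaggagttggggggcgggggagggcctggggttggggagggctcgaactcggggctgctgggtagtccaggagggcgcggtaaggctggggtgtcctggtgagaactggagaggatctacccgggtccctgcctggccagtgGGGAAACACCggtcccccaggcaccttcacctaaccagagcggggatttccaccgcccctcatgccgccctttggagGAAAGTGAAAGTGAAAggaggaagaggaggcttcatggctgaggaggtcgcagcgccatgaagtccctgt

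The response element core occurred in 3.57% of the 35116 promoter windows of the same table and the kappaB-type site in 25.6%. Of the members, 8 have a window in the table and 5 of these held the response element core. *TAP1* held 2 overlapping matches in its printed window, at 134 and 128 bases before that start, written TTTCGATTTC and TTTCGCTTTC on the coding strand. Its other window held neither the response element core nor a kappaB-type site. *B2M* held 2 matches that also overlap, GAAAAGGAAA and GAAACTGAAA, followed by a kappaB-type site. *TAPBP* held the letters GAAAGTGAAA at 20 and again at 14 bases before its start. *TAP2* held 1 match, GAAAGCGAAA, and *PSMB8* held 1 in the second of its 2 windows. The windows of *HLA-B*, *HLA-C* and *PSMB9* held none of these letters, which says nothing about whether interferon factors act there. The response element matches of *TAP1* lie between its start and that of *PSMB9*, outside the *PSMB9* window. The kappaB-type site was found for 5 members, *HLA-B*, *HLA-C*, *B2M*, *TAP1* and *TAPBP*.

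In KYSE30 cells, class I genes were higher with PTDSS1i from the heavy chains to the loading complex. Of the 9 members 8 were called higher, with edgeR's quasi-likelihood p-values, adjusted by Benjamini-Hochberg over all genes tested, under 0.05, and *PSMB9* was not called. For comparison, 30.1% of all 16389 genes tested were called higher and 32.0% lower, or 4927 and 5238 genes, which became 3932 and 6460 by library size without TMM, while the same 8 members stayed called. No member was lower by edgeR, at an unadjusted p under 0.05 or by DESeq2. A log2 fold change of at least 1 was reached by 4 members, *HLA-B*, *TAP1*, *B2M* and *HLA-C*, against 6.40% of all genes. The median log2 fold change of the members was 0.87, beside -0.03 over all genes. Together the 9 genes took 0.1003% to 0.124% of the counts with DMSO and 0.200% to 0.214% with PTDSS1i. In bulk RNA a change in the number of cells of a kind cannot be told apart from a change in RNA per cell.

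Among the heavy chains, *HLA-B*, a classical chain that presents peptides to CD8 T cells, had 97.2, 131 and 112 CPM in the DMSO libraries and 269, 277 and 262 CPM in the PTDSS1i libraries. Every treated library lay above every control by more than the controls differed among themselves, and edgeR gave a log2 fold change of 1.36 (SE 0.07, adjusted p = 5.74e-11). *HLA-C*, the classical chain that is also read by killer receptors of NK cells, was the most abundant member, with 365, 427 and 378 CPM with DMSO and 781, 785 and 683 CPM with PTDSS1i. Its groups did not overlap, and the log2 fold change was 1.05 (SE 0.06, edgeR adjusted p = 3.80e-12). *HLA-E* had 157, 199 and 174 CPM with DMSO and 263, 269 and 258 CPM with PTDSS1i, again without overlap, and a smaller log2 fold change of 0.68 (SE 0.06, edgeR adjusted p = 3.07e-09). Reads of the near-identical classical chains can be split or lost in counting, so the share of each is uncertain.

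*B2M*, the light chain that every class I molecule needs, had 203, 259 and 237 CPM with DMSO and 439, 455 and 451 CPM with PTDSS1i. The treated libraries lay close together and far above the controls, with a log2 fold change of 1.05 (SE 0.06, edgeR adjusted p = 4.34e-12). Within each library, *HLA-B* per kb of exon was 0.942 to 1.00 times *B2M* with DMSO and 1.16 to 1.22 times with PTDSS1i. *HLA-E* per kb went the other way, from 1.503 to 1.58 times *B2M* with DMSO to 1.17 to 1.22 times with PTDSS1i.

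The transporter subunits moved by unequal amounts. *TAP1* had 26.8, 40.3 and 33.5 CPM with DMSO and 79.1, 80.8 and 75.4 CPM with PTDSS1i, a log2 fold change of 1.34 (SE 0.11, edgeR adjusted p = 1.63e-06). *TAP2*, its partner in the transporter, had 13.1, 14.9 and 14.1 CPM with DMSO and 17.6, 17.5 and 15.97 CPM with PTDSS1i. Its groups did not overlap either, but the log2 fold change was 0.39 (SE 0.08, edgeR adjusted p = 4.48e-04). *TAPBP* had 133, 155 and 143 CPM with DMSO and 249, 243 and 243 CPM with PTDSS1i, and its log2 fold change was 0.87 (SE 0.05, edgeR adjusted p = 3.83e-12).

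The immunoproteasome subunits were the lowest members in KYSE30 by CPM and had smaller changes than the heavy chains. *PSMB8* had 5.93, 6.91 and 6.96 CPM with DMSO and 7.92, 9.74 and 8.08 CPM with PTDSS1i, a log2 fold change of 0.48 (SE 0.12, edgeR adjusted p = 1.24e-03). *PSMB9* had 2.27, 5.64 and 4.08 CPM with DMSO and 4.81, 5.12 and 4.56 CPM with PTDSS1i. Its groups overlapped, and the log2 fold change of 0.39 (SE 0.23) had an edgeR adjusted p of 0.162. At 46 to 115 counts a library, this change was not larger than the spread between the libraries. It was 0.13 without DMSO replicate 1 and 0.67 (adjusted p = 4.88e-03) without DMSO replicate 2. The other 8 members had every PTDSS1i library above every DMSO library, as had 25.5% of all genes.

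The KYSE30 control libraries shared an order. DMSO replicate 1 was the lowest of the 3 for all 9 members, and DMSO replicate 2 the highest for 8. Across all genes tested, replicate 1 was the lowest for 47.0% by library total and for 35.8% after TMM scaling, with all 9 members lowest on both scales. Leaving out any 1 library kept the 8 calls, and the log2 fold change of *TAP1* then ranged from 1.22 to 1.46 and that of *HLA-B* from 1.28 to 1.45. The plot of CPM by library shows these values for each member.

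**Figure D1:**
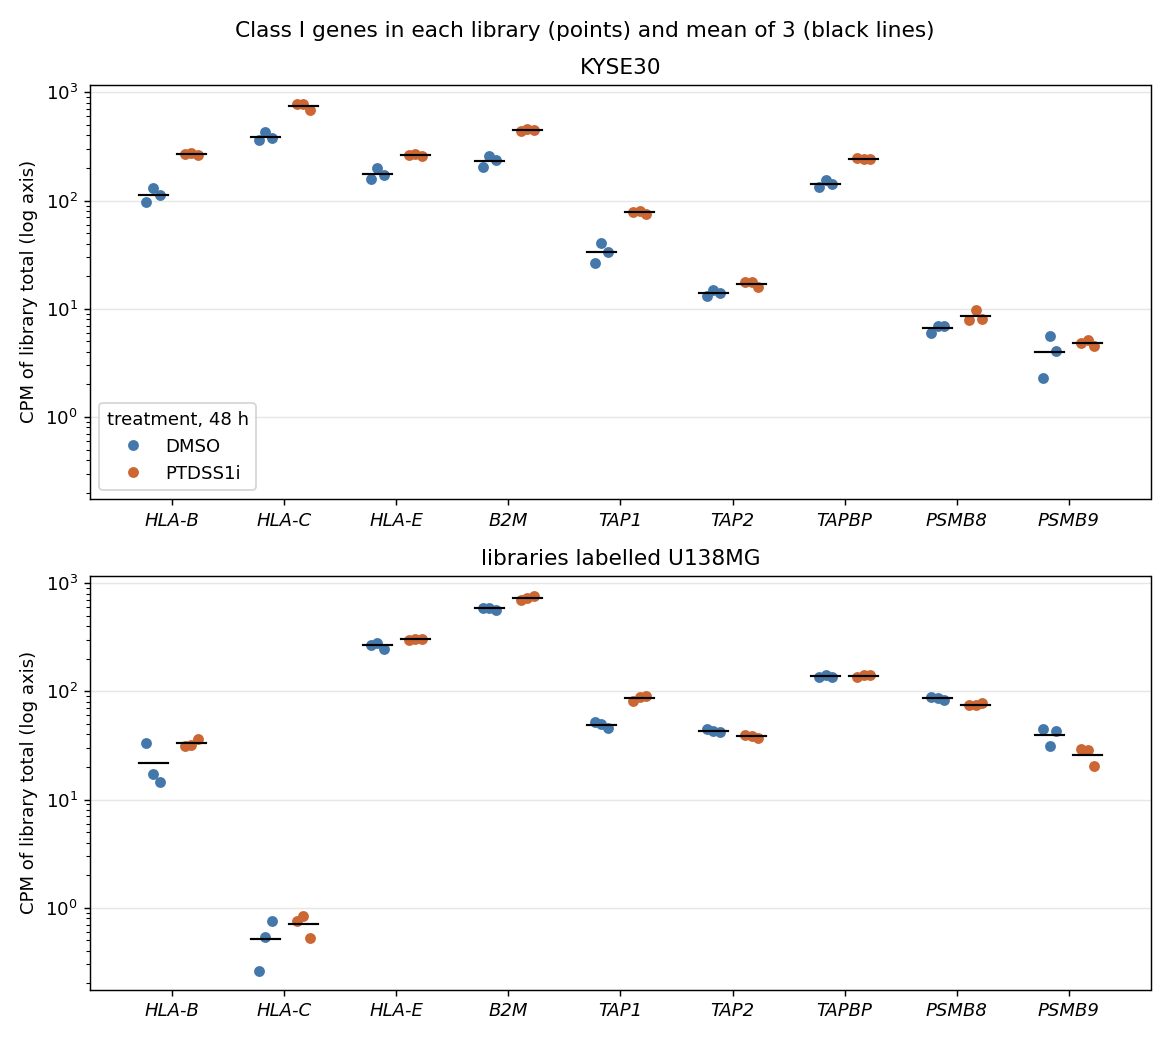
CPM of the library total (log axis) for each of the 9 class I genes, with 1 point for each library, DMSO in blue and PTDSS1i in orange, and black lines at the mean of 3. In KYSE30 (top) 8 of 9 genes have all orange points above all blue ones, while in the libraries labelled U138MG (bottom) *TAP1*, *B2M* and *HLA-E* are higher, *TAP2*, *PSMB8* and *PSMB9* are lower in CPM, and *HLA-C* lies near 0.5 CPM.

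In the libraries labelled U138MG, the change was narrower. *TAP1*, *B2M*, *HLA-E* and *TAPBP* were called higher by edgeR and the other 5 members were not called. That is 4 of 9 (3 by library size), near the 33.9% of all 17666 genes tested that were called higher. Of all genes 33.6% were called lower. These shares are 5989 and 5930 genes (4533 and 7694 by library size). No member was lower by edgeR with TMM, at an unadjusted p under 0.05 or by DESeq2. None reached a log2 fold change of 1, which 8.19% of all genes did with a call. The members had a median log2 fold change of 0.32, beside -0.03 over all genes, and took 0.118% to 0.126% of the counts with DMSO and 0.139% to 0.146% with PTDSS1i. In CPM of the library total, 3 members had every PTDSS1i library above every DMSO library (27.0% of all genes did), 3 had every one below, and 3 overlapped. The share of all genes wholly below was not counted. By library size the median log2 fold change of all genes was itself -0.17, and whether the 3 below set these members apart was not tested.

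*TAP1* changed most among the called members, from 51.9, 49.5 and 45.7 CPM with DMSO to 81.4, 88.2 and 90.3 CPM with PTDSS1i. The groups were far apart, and the log2 fold change was 0.97 (SE 0.05, edgeR adjusted p = 1.80e-14). *B2M* had 588, 594 and 568 CPM with DMSO and 704, 734 and 754 CPM with PTDSS1i, a log2 fold change of 0.47 (SE 0.04, edgeR adjusted p = 1.45e-12). *HLA-E* had 270.2, 281 and 248 CPM with DMSO and 295, 308 and 302 CPM with PTDSS1i, a log2 fold change of 0.32 (SE 0.04, edgeR adjusted p = 2.28e-07) that was 0.18 by library size or upper-quartile scaling, with the call kept. For both genes every treated library lay above every control.

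*HLA-B* and *HLA-C* were low and uncertain in these libraries. *HLA-B* had 33.6, 17.2 and 14.7 CPM with DMSO and 31.3, 32.1 and 36.0 CPM with PTDSS1i. DMSO replicate 1 stood among the treated libraries and apart from the other two controls. The log2 fold change was 0.77 (SE 0.36, edgeR adjusted p = 0.128), and without that replicate it was 1.21 (SE 0.09, adjusted p = 3.31e-10). *HLA-C* had 5, 12 and 16 counts with DMSO and 18, 19 and 14 counts with PTDSS1i, or 0.261 to 0.749 CPM and 0.528 to 0.832 CPM. Its log2 fold change of 0.56 (SE 0.42) had an edgeR adjusted p of 0.241, so at this depth no change was detectable. Over left-out libraries it ranged from 0.27 without DMSO replicate 1 to 0.92 without DMSO replicate 3, uncalled each time. Class I alleles differ from the reference sequence, so the level of *HLA-C* in these libraries is uncertain beyond counting error. The same libraries held *B2M* at more than 500 CPM and *HLA-E* at more than 200 CPM.

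The calls of *TAP2*, *TAPBP* and *PSMB8* depended on the scaling. *TAP2* had 44.9, 42.5 and 42.0 CPM with DMSO and 39.7, 38.6 and 37.3 CPM with PTDSS1i, so each treated library was below each control. After TMM scaling its log2 fold change was -0.02 (SE 0.05, edgeR adjusted p = 0.797), and by library size alone it was -0.16 (SE 0.05, adjusted p = 9.82e-03). *PSMB8* had 87.7, 87.2 and 83.4 CPM with DMSO and 74.0, 74.2 and 77.2 CPM with PTDSS1i. Its log2 fold change was -0.05 (SE 0.04, edgeR adjusted p = 0.313) with TMM and -0.20 (SE 0.04, adjusted p = 1.81e-04) by library size. *TAPBP* overlapped in CPM, with 136, 142 and 135 CPM against 135, 143 and 141 CPM, and its call at a log2 fold change of 0.16 (SE 0.04, edgeR adjusted p = 3.58e-04) was lost by library size, at 0.02 (SE 0.04, adjusted p = 0.696). The median of all genes moved from -0.03 to -0.17 between these scalings. Relative to that median, *TAPBP* stood at 0.19, *TAP2* at 0.01 and *PSMB8* at -0.02 on both.

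*PSMB9* had 44.4, 30.9 and 42.9 CPM with DMSO and 29.04, 28.7 and 20.3 CPM with PTDSS1i. The treated libraries were lower without overlap, but the spread was wide, and the log2 fold change of -0.45 (SE 0.22) had an edgeR adjusted p of 0.143. Without DMSO replicate 2, the lowest control, it was -0.61 (SE 0.17, adjusted p = 0.0325), and without PTDSS1i replicate 3 it was -0.29.

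**Figure D2:**
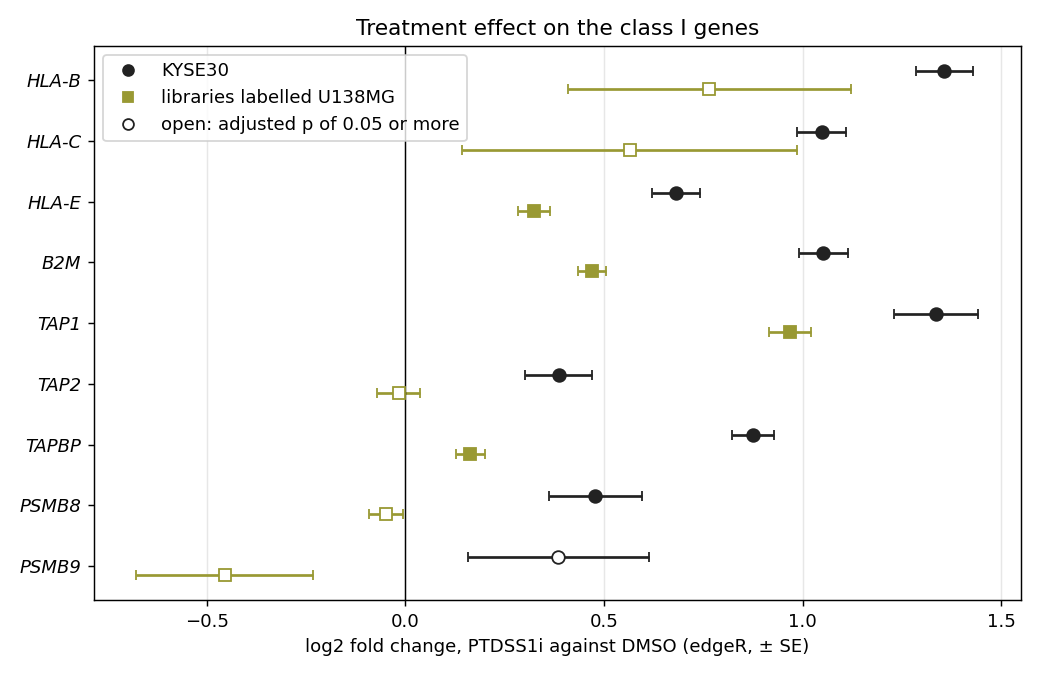
Log2 fold change of PTDSS1i against DMSO from edgeR, with SE bars, for the 9 class I genes in KYSE30 (black circles) and in the libraries labelled U138MG (olive squares); open symbols have an adjusted p of 0.05 or more. Every olive point lies left of the black one, from *TAP1* at 0.97 against 1.34 to *PSMB9* at -0.45 against 0.39.

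The difference between the tables was tested itself, as the interaction of line and treatment over 18405 genes. It was called for 6 of the 9 members (5 by library size), against 49.9% of all genes tested, and in each the change was smaller in the libraries labelled U138MG. Of the 18405 genes, 4487 were called with a lower log2 fold change there and 4701 with a higher one. Among these 6 the difference of the log2 fold changes was largest for *TAPBP*, at -0.75 (SE 0.06, edgeR adjusted p = 1.64e-11), followed by *B2M* at -0.62 (SE 0.07, adjusted p = 1.28e-08) and *PSMB8* at -0.56 (SE 0.11, adjusted p = 5.76e-05). *TAP2* gave -0.44 (SE 0.10), *HLA-E* -0.40 (SE 0.08) and *TAP1* -0.41 (SE 0.13, edgeR adjusted p = 0.0183). For *HLA-B*, *HLA-C* and *PSMB9* the estimates of -0.63, -0.54 and -0.88 had SE of 0.34, 0.37 and 0.41 and were not called, with edgeR adjusted p of 0.167, 0.251 and 0.107. With a library left out, the estimate for *HLA-B* ranged from -0.86 (without U138MG DMSO replicate 3) to -0.20 (without U138MG DMSO replicate 1). That for *HLA-C* ranged from -0.84 (without U138MG DMSO replicate 1) to -0.20 (without U138MG DMSO replicate 3), and that for *PSMB9* from -1.18 (without KYSE30 DMSO replicate 2) to -0.63 (without KYSE30 DMSO replicate 1). Nearly as many genes as not passed this test, so a call alone does not set the members apart. Whether the shared direction of their calls does was not tested.

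Per kb of exon, the 2 tables ranked the members differently. The length used joins every annotated exon of a gene, from 2507 bases for *HLA-C* to 6079 for *B2M* and 6390 for *TAP2*. It can exceed the transcript made, so the order between genes is uncertain. In KYSE30 with DMSO the order was *HLA-C* (156 ± 13.1 CPM per kb, SD, n = 3), *HLA-E* (59.4 ± 7.16), *B2M*, *HLA-B*, *TAPBP*, *TAP1*, *PSMB8*, *TAP2* and *PSMB9* (1.30 ± 0.548). *B2M* and *HLA-B* overlapped, as did *PSMB8* and *TAP2*, and no other neighbours did. With PTDSS1i *HLA-B* (88.2 ± 2.47) moved above *B2M* (73.8 ± 1.40) and overlapped with *HLA-E* (88.5 ± 1.81). In the libraries labelled U138MG with DMSO the order was *B2M* (96.0 ± 2.24), *HLA-E* (89.6 ± 5.62), *PSMB8* (28.7 ± 0.784), *TAPBP* (27.3 ± 0.752), *PSMB9* (12.8 ± 2.40), *TAP1* (10.2 ± 0.653), *HLA-B* (7.15 ± 3.38), *TAP2* (6.75 ± 0.243) and *HLA-C* (0.206 ± 0.0977). There *B2M* and *HLA-E* overlapped, as did *PSMB8* and *TAPBP*, and *PSMB9*, *TAP1* and *HLA-B* each overlapped with the next in the order. With PTDSS1i no neighbours overlapped, and *TAP1* (18.0 ± 0.971) stood above *PSMB9* (8.47 ± 1.61). Exon lengths are those of GENCODE, and the counting annotation is not given in the sources used here.

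Ratios within a library do not depend on the scaling and show which members moved apart. Their absolute level depends on the exon lengths used, but their change with PTDSS1i does not. *TAP1* per kb was 2.72, 3.60 and 3.16 times *TAP2* in KYSE30 with DMSO and 5.97, 6.13 and 6.28 times with PTDSS1i. With the U138MG label the ratio was 1.54, 1.55 and 1.45 with DMSO and 2.72, 3.04 and 3.22 with PTDSS1i. The difference of the mean log2 ratios was 0.96 in KYSE30 and 0.98 in the other table, and whether these differ was not tested. *PSMB9*, the divergent neighbour of *TAP1* printed above, was lower relative to it in both. In KYSE30 *PSMB9* per kb was 0.133, 0.219 and 0.191 times *TAP1* with DMSO and 0.0950, 0.0990 and 0.0945 times with PTDSS1i. Under the U138MG label it was 1.34, 0.977 and 1.47 times with DMSO and 0.558, 0.509 and 0.352 times with PTDSS1i.

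Each immunoproteasome subunit can be set against the constitutive subunit it replaces. *PSMB8* to *PSMB5* per kb was 0.0334, 0.0420 and 0.0388 in KYSE30 with DMSO and 0.0498, 0.0649 and 0.0535 with PTDSS1i. The same ratio in the libraries labelled U138MG was 0.642, 0.662 and 0.623 with DMSO and 0.460, 0.463 and 0.456 with PTDSS1i. The ratio was thus higher with PTDSS1i in KYSE30 and lower in the other table, and the groups did not overlap in either. *PSMB9* to *PSMB6* overlapped in KYSE30, at 0.0175 ± 0.00913 and 0.0263 ± 0.00211 (SD, n = 3), and was 0.225 ± 0.0407 with DMSO and 0.136 ± 0.0279 with PTDSS1i in the libraries labelled U138MG. *PSMB10*, the third immunoproteasome subunit, was 0.0545 ± 0.0115 of *PSMB7* in KYSE30 with DMSO and 0.0903 ± 0.00608 with PTDSS1i, and 0.359 ± 0.0103 and 0.208 ± 0.00168 in the libraries labelled U138MG. Leaving out a library moved the log2 of the ratio of group means of *PSMB9* to *PSMB6* in KYSE30 between 0.27 (without DMSO replicate 1) and 1.05 (without DMSO replicate 2). Of 18 ratios compared, 13 reached an exact two-sided permutation p of 0.1, the smallest that 3 libraries against 3 allow, and their Benjamini-Hochberg adjusted p was 0.138, so none can pass 0.05.

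**Figure D3:**
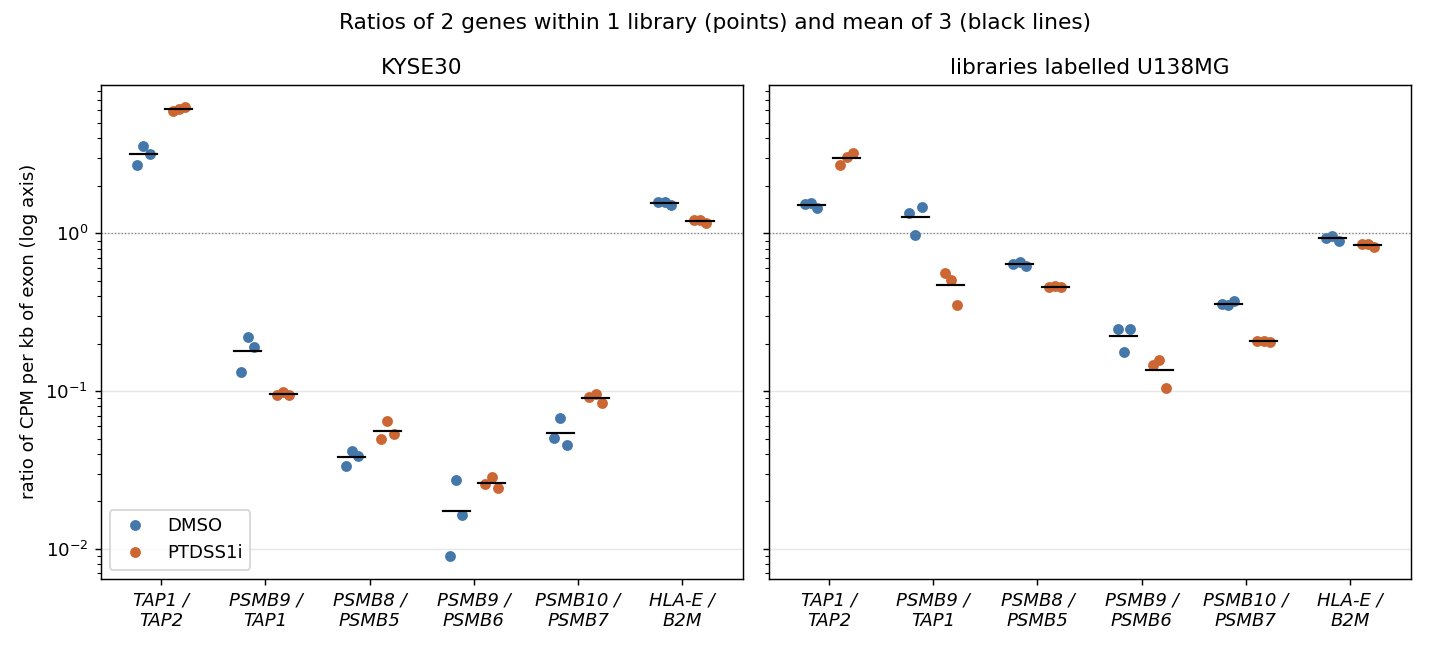
Ratio of 2 genes within each library, as CPM per kb of exon on a log axis, for KYSE30 (left) and the libraries labelled U138MG (right), with DMSO in blue, PTDSS1i in orange and black lines at the mean of 3. *TAP1* / *TAP2* is higher and *PSMB9* / *TAP1* lower with PTDSS1i in both panels, while the 3 ratios of immunoproteasome to constitutive subunits are higher with PTDSS1i on the left, where *PSMB9* / *PSMB6* overlaps, and lower on the right.

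The rest of the pathway was read from lists written with earlier results of these data known, each described by its counts and its median log2 fold change. Over all genes tested, 30.1% were higher and 32.0% lower in KYSE30 and 33.9% and 33.6% in the libraries labelled U138MG, with a median of -0.03 in each. Among 6 further class I and class I-like heavy chains that passed the filter, 5 were higher and 1 lower in each table, with medians of 0.71 and 0.80. The lower count with the U138MG label became 2 without DMSO replicate 2, PTDSS1i replicate 1 or PTDSS1i replicate 3. *MICB*, a stress-induced ligand of an activating NK cell receptor, rose by a log2 fold change of 1.51 (SE 0.06) in KYSE30 and 1.87 (SE 0.11) in the libraries labelled U138MG. *MICA*, its close relative, rose by 1.09 (SE 0.06) and 1.13 (SE 0.12). *HLA-F* rose by 0.73 (SE 0.12) and 0.71 (SE 0.07). *HFE*, an iron regulator with a class I fold, fell by 0.39 in KYSE30, and *FCGRT*, the neonatal Fc receptor, fell by 0.27 in the libraries labelled U138MG. These have edgeR adjusted p of at most 7.68e-05, and the difference between the tables was called for *MICB* and not for *HLA-F* or *MICA*.

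Of 11 genes of peptide loading, folding and trimming in the endoplasmic reticulum, 7 were higher and 2 lower in KYSE30 (3 and 2 by library size), and 5 were higher and 6 lower in the libraries labelled U138MG. The medians were 0.19 and -0.11. Of all genes tested in KYSE30, 30.1% were higher with TMM and 3932 of 16389 by library size. The share of the list by library size was near the latter. The chaperone *HSPA5* rose in both, by a log2 fold change of 0.52 (SE 0.05) and 1.50 (SE 0.04), with edgeR adjusted p of 3.24e-08 and 1.11e-20. *ERAP2*, which trims peptides to class I length, averaged 175 CPM with DMSO and 77.2 CPM with PTDSS1i in the libraries labelled U138MG, and fell by 1.04 on the log2 scale (SE 0.04, edgeR adjusted p = 4.77e-19). In KYSE30 *ERAP2* averaged 73.9 and 66.4 CPM, and its log2 fold change of -0.05 (SE 0.07) was not called (adjusted p = 0.565). *UGGT1*, which keeps unloaded glycoproteins in the folding cycle, fell by 0.38 (SE 0.05) in KYSE30 and rose by 0.26 (SE 0.04) in the other table, with edgeR adjusted p of 1.23e-06 and 1.61e-06.

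Of 11 core subunits that are not exchanged in the immunoproteasome, 10 were lower in KYSE30 (7 to 10 with a library left out), with a median log2 fold change of -0.25. In the libraries labelled U138MG, 8 were higher and 1 lower, with a median of 0.22, but by library size 5 were higher and 3 lower, and without PTDSS1i replicate 2 the call of the lower one was lost. Of all genes, 32.0% were lower in KYSE30 and 33.9% higher under the U138MG label. *PSMB3*, a structural subunit of the core, fell by 0.35 (SE 0.06) in KYSE30 and rose by 0.42 (SE 0.04) in the libraries labelled U138MG, with edgeR adjusted p of 6.96e-05 and 1.18e-09. The constitutive catalytic subunits *PSMB5*, *PSMB6* and *PSMB7* had log2 fold changes of -0.08, -0.26 and -0.07 in KYSE30, of which *PSMB6* was called with TMM and all 3 by library size or without DMSO replicate 2, and of 0.43, 0.28 and 0.28 in the libraries labelled U138MG, all called by edgeR. *PSMB10* rose by 0.68 (SE 0.09) in KYSE30 and fell by 0.51 (SE 0.05) in the libraries labelled U138MG, with edgeR adjusted p of 1.86e-06 and 3.34e-09. *POMP*, an assembly factor of the proteasome, had -0.08 (edgeR adjusted p = 0.234) in KYSE30 and rose by 0.65 (SE 0.04, adjusted p = 8.66e-15) in the other table. The 7 cytosolic peptidases had 2 higher and 3 lower in KYSE30 and 2 higher and 5 lower in the libraries labelled U138MG (3 lower without PTDSS1i replicate 2 or 3). Their shares higher were near the 30.1% and 33.9% of all genes and their medians were -0.10 and -0.15, with *BLMH* lower in both, by 1.48 and 0.48 on the log2 scale.

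Of 17 transcriptional regulators of class I genes, 9 were higher and 3 lower in KYSE30 (8 and 6 by library size), and 9 were higher and 6 lower in the libraries labelled U138MG, where 33.6% of all genes were lower as well. The medians were 0.31 and 0.15, beside 30.1% and 33.9% of all genes called higher. *NLRC5* rose in both, from 14.0 to 25.9 CPM in KYSE30 (log2 fold change 0.99, SE 0.09, edgeR adjusted p = 4.87e-09) and from 15.5 to 48.7 CPM in the libraries labelled U138MG (1.79, SE 0.07, adjusted p = 8.18e-19). *NLRC5* rose more in the libraries labelled U138MG, by a difference of 0.76 (edgeR adjusted p = 4.80e-06). *IRF1*, an interferon-induced activator of class I promoters, went from 42.5 to 72.6 CPM in KYSE30 (0.88, SE 0.07, edgeR adjusted p = 1.53e-10) and from 75.1 to 57.8 CPM in the other table (-0.23, SE 0.05, adjusted p = 1.08e-04). Of 9 interferon receptor and signalling genes, 4 were higher and 1 lower in KYSE30 (2 lower by library size). In the libraries labelled U138MG 5 were higher and 2 lower. The medians were 0.26 and 0.42, beside the same shares of all genes called higher. *IFNGR2* rose in both tables, by 0.84 and 0.99, whereas *IFNGR1* had 0.61 in KYSE30 and -0.32 in the other table. *SOCS3*, an inhibitor of cytokine signalling, had -0.11 in KYSE30 and rose by 3.53 (SE 0.10) in the libraries labelled U138MG.

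Interferon-stimulated genes that are no part of antigen presentation gave the widest contrast. Of 16 tested, 14 were higher in KYSE30, with a median log2 fold change of 1.84, and 5 were higher and 10 lower in the libraries labelled U138MG, with a median of -0.66. Of all genes, 30.1% were higher in KYSE30 and 33.6% lower under the U138MG label. *ISG15* rose by 2.18 (SE 0.09) in KYSE30 and by 0.78 (SE 0.13) in the other table, and *BST2* rose by 1.86 (SE 0.45) and fell by 1.54 (SE 0.08), with edgeR adjusted p of 0.0230 and 1.77e-15. Their summed level ranged from 479 to 757 CPM in KYSE30 with DMSO and from 1979 to 2282 CPM with PTDSS1i. Under the U138MG label it ranged from 441 to 466 CPM and from 349 to 361 CPM.

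**Figure D4:**
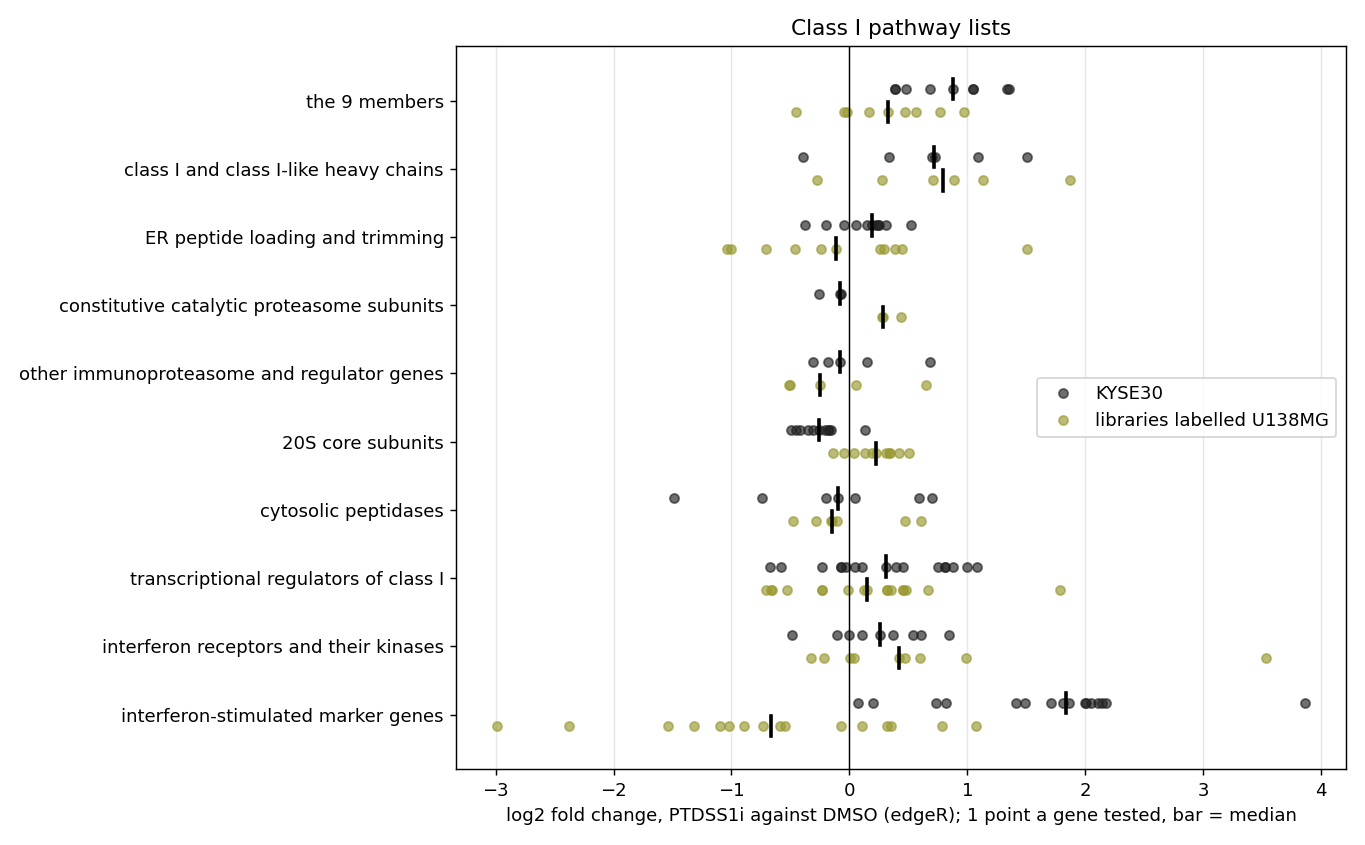
Log2 fold change of PTDSS1i against DMSO from edgeR for each gene tested of the 9 members and of 9 lists, with 1 point a gene, KYSE30 in black above and the libraries labelled U138MG in olive below, and a black bar at each median. The members' medians are 0.87 and 0.32, the core proteasome subunits lie mostly left of 0 in KYSE30 and right of 0 in the other table, and the interferon-stimulated genes have medians of 1.84 and -0.66.

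The remaining lists touch how class I molecules are restrained and read. Of 7 tested negative regulators of class I, 2 were higher and 3 lower in KYSE30 and 3 higher and 3 lower in the libraries labelled U138MG, where by library size 3 were lower and the rest not called. The counts with TMM lie within 1 gene of the shares of all genes. These shares were 30.1% and 32.0% in KYSE30 and 33.9% and 33.6% in the other table. The medians of the list were -0.16 and 0.05. *EZH2*, a histone methyltransferase that silences class I genes, fell by a log2 fold change of 1.01 (SE 0.06) in KYSE30 and by 0.31 (SE 0.05) in the other table, with edgeR adjusted p of 6.84e-12 and 1.49e-05. Of the ligands of T cell and NK cell receptors, 5 of 9 tested were higher in KYSE30, and 7 of 10 were higher and 3 lower in the libraries labelled U138MG, with medians of 0.45 and 0.54 beside 30.1% and 33.9% of all genes called higher. *ULBP2*, a stress ligand of NK cells, rose by 1.82 (SE 0.10) and 3.03 (SE 0.06), with edgeR adjusted p of 4.25e-13 and 1.65e-25. Class II genes, which present extracellular antigens, were at or near 0 in KYSE30, where 1 of the 5 listed passed the filter. With the U138MG label 3 of 9 were higher and 3 lower (1 and 4 by library size), and *HLA-DRA* rose from 7.55 to 10.1 CPM, a log2 fold change of 0.56 (SE 0.11, edgeR adjusted p = 7.57e-05). *HLA-DMB* went the other way and fell by 0.52 on the log2 scale, also called by edgeR.

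Some member counts can include reads of a neighbour. By GENCODE, exons of *PSMB8-AS1* overlap 20.6% of the exon length of *PSMB8*, 9.49% of *TAP1* and 5.66% of *PSMB9*, and exons of AL669918.1 overlap 32.3% of *TAP2*. A pseudogene overlaps 17.8% of *HLA-B*. The library kit named in the labels does not mark strand, so reads of a gene and of an antisense neighbour cannot be told apart, and these values are uncertain to that extent.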

How the data were processed

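Poly-A RNA-seq of 12 libraries was analysed. The authors deposited 1 table of raw, unnormalized read counts for each line. The submitters' processing notes name Trimmomatic, STAR, featureCounts and hg38. Versions, annotation and use of strand are not given in the sources used here. Groups and replicate numbers came from the labels. Members and gene lists were chosen with earlier results of these data known.

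The analysis used R 4.3.3, edgeR 4.0.16 and limma 3.58.1, with figures from matplotlib. Genes were kept by filterByExpr (minimum count 10, minimum total 15) and normalized by TMM. The robust quasi-likelihood test compared PTDSS1i with DMSO in each table, and the interaction over genes in both tables, with Benjamini-Hochberg adjustment over all genes tested and a threshold of 0.05. CPM uses library totals, and CPM per kb divides by the joined length of all GENCODE exons of a gene. Ratios were compared by exact permutation. In KYSE30 DMSO replicate 2, the shallowest library, 3 counts equal 0.160 CPM, for counting error only. Beside the members and their direct counterparts, regulators and heavy chains, up to 2 genes of a list and table were selected. These had the largest change among those called with at least 5 CPM. The text gives the changes of only some of the selected genes. Scripts were tested on simulated data. Alternatives were other scalings and filters, DESeq2 1.42.0, a replicate block, each library left out, a joint fit, a fold threshold of 1 and, added after seeing the data, each library left out of the ratios. Replicate libraries differed beyond sampling noise. Some list genes are counted but their values are not reported here.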

Additional observations from a re-analysis of the deposited data

Results flagged for a closer look

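The treatment effects of these genes differed between the tables by the interaction test of edgeR's quasi-likelihood fit, at an adjusted p under 0.05. Each value is the log2 fold change in the libraries labelled U138MG minus that in KYSE30. Among the members the values were *TAPBP* -0.75, *B2M* -0.62, *PSMB8* -0.56, *TAP2* -0.44, *TAP1* -0.41 and *HLA-E* -0.40. For the proteasome they were *PSMB5* 0.47, *PSMB6* 0.50, *PSMB7* 0.31, *PSMB10* -1.23, *PSMB2* 0.68, *PSMB3* 0.73, *PSMA4* 0.42, *PSMA5* 0.62, *POMP* 0.69 and *PSME3* 0.32. For peptide trimming and loading they were *HSPA5* 0.94, *UGGT1* 0.60, *ERAP2* -1.03, *BLMH* 0.97, *THOP1* 0.54 and *IDE* 0.77. For regulation and interferon signalling they were *NLRC5* 0.76, *IRF1* -1.15, *IFNGR1* -0.97, *SOCS3* 3.60, *EZH2* 0.67 and *TMEM127* -0.38. For surface ligands they were *MICB* 0.32, *ULBP2* 1.16 and *CEACAM1* 2.71. For interferon-stimulated genes they were *RSAD2* -2.38, *ISG15* -1.43, *IFI44L* -4.52 and *BST2* -3.44. Line, batch and table cannot be told apart in these differences.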

How the results depend on the processing

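In KYSE30 the 8 calls kept their direction and their side of the threshold under every scaling, filter, tool and left-out library tried, and the fold threshold of 1 left 4 members, 1049 higher and 1154 lower genes of 4927 and 5238. *PSMB9* there was called with no filter beyond 1 count (0.37, adjusted p = 0.0434) and without DMSO replicate 2 (0.67, adjusted p = 4.88e-03), and otherwise not, with 0.13 to 0.67 over left-out libraries. In the libraries labelled U138MG the fold threshold left 0 members higher, 1446 higher and 2048 lower genes of 5989 and 5930. Members lower were 2 (*TAP2* and *PSMB8*) instead of 0 by library size and by upper-quartile scaling, which also ended the call of *TAPBP*, and 0 to 1 over left-out libraries (*PSMB9* without DMSO replicate 2). *TAP2* turned to 0.014 with no filter, and ranged from -0.035 to 0.016 over left-out libraries, above 0 without DMSO replicate 1 or PTDSS1i replicate 3, uncalled each time. *HLA-B* was called in the joint fit of 12 libraries (0.77, adjusted p = 0.0340) and ranged from 0.55 to 1.21 over left-out libraries. For the difference between the tables, *TAP1* missed the threshold by library size (-0.41, adjusted p = 0.0501), and *PSMB9* was called by DESeq2 (-0.89, adjusted p = 0.0480) and without U138MG DMSO replicate 2 (-1.03, adjusted p = 0.0430). The cause of these changes was not tested. Over the 9 members, 53 values in KYSE30, 50 in the libraries labelled U138MG and 107 for the difference kept direction and side of the threshold with a library left out, and 76, 68 and 60 did under the other alternatives.

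Replicate numbers are shared between groups. In KYSE30 the deviations of same-numbered libraries correlated at 0.0204 to 0.0754, and those of other pairs at -0.0760 to 0.00613. In the other table the ranges were -0.00288 to 0.0484 and -0.0638 to 0.0559. Whether the numbers pair the libraries cannot be told from such small values. A fit with the replicate block gave 8 members higher in KYSE30, 4 in the libraries labelled U138MG and 6 with a difference, and 5081 higher and 5377 lower genes in KYSE30. No member has more than 1 identifier in either table, so summing identifiers gave no value. *HLA-C* rests on 5 to 19 counts a library in the libraries labelled U138MG, where counting error is wide. Among the ratios reported, those other than *PSMB9* to *PSMB6* in KYSE30 moved by less than 1.5 times with a library left out.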
